A study of Homo sapiens with 2 samples.

Results

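Proliferation and mitosis genes were followed on 10 probes, 1 for each of *CCNB1*, *CCNA2*, *CDK1*, *CDC20*, *UBE2C*, *AURKA*, *BIRC5*, *TOP2A*, *CDC45* and *TYMS*, out of 20045 genes with a named probe among the 47318 probes measured. They were chosen by probe identifier, as well-known genes of DNA replication and cell division, and the annotation of the array gave the same gene symbol for all 10. Earlier results of these data were known when they were chosen. The cells were TIVE-LTC, a line derived from human umbilical vein endothelium, made immortal with telomerase and infected over the long term with KSHV, the herpesvirus of Kaposi's sarcoma. One group received 60 µM ABC294640, an inhibitor of sphingosine kinase 2, and the other received vehicle. Exposure lasted 24 h in both groups, and both share the immortalization and the infection. Each group was 1 array of 1 cell line, so the values carry no error between replicates, differences were not tested, and every ratio describes these 2 arrays.

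Progress through the cell cycle is driven by cyclin-dependent kinases (CDKs), which are active only when bound to a cyclin. Cyclin A2 serves DNA synthesis and the approach to mitosis, cyclin B1 with CDK1 starts mitosis, and a ubiquitin ligase, the anaphase-promoting complex (APC/C), ends it by marking cyclins and other proteins for destruction. Many of these genes are transcribed in waves, those for DNA synthesis before those for mitosis, so that their transcripts are low in cells that do not divide. In such a culture, fewer dividing cells and less transcript per dividing cell cannot be told apart from bulk RNA.

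RefSeq promoters (build GRCh38.p14) were at hand for 7 of the 10 genes. They are shown because transcripts of mitotic genes are known to depend on short elements close to the start of transcription: the CCAAT box (CCAAT), bound by NF-Y, and the cell cycle genes homology region, CHR (TTTGAA), bound by the DREAM and MYBL2 or FOXM1 complexes. Another motif, bound by E2F factors (TTCCCGC), is typical of genes for DNA synthesis. Each window holds the 150 bases before the start, 5′ to 3′ on the strand of the gene, with matches to these letters on either strand in capitals. The first 3 genes had the lowest ratios of ABC294640 over vehicle among the 7, and the last had the highest. The windows are chr17:40417897-40418046 (minus strand) for *TOP2A*, chr10:60778328-60778477 (plus strand) for the second of 2 listed starts of *CDK1*, chr5:69167000-69167149 (plus strand) for *CCNB1* and chr22:19479770-19479919 (plus strand) for the first of 3 listed starts of *CDC45*.
TOP2A: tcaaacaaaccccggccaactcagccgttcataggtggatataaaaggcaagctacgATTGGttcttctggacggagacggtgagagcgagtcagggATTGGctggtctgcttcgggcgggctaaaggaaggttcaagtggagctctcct
CDK1: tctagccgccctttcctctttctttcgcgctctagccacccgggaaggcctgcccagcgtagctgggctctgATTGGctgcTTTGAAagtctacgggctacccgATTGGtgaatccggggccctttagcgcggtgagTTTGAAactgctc
CCNB1: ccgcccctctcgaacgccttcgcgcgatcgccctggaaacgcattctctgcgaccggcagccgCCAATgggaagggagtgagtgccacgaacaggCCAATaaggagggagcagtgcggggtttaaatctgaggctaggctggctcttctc
CDC45: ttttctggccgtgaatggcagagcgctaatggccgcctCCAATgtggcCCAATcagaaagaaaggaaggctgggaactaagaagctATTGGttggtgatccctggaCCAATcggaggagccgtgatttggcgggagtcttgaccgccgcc

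At least 1 CCAAT match lay in a window of 6 of the 7 genes, against 23.5% of all 35116 promoters over the same 150 bases. A gene counted here if any of its listed starts matched, whereas the shares of all promoters count each start alone. The comparison thus favours *CDK1* and *CDC45*, which have several starts. *TOP2A* and *CCNB1* each held 2 CCAAT matches, *CDK1* held 2 at the start shown, and *CDC45* held 4 at the start shown. The other start of *CDK1* held 1. Of the other starts of *CDC45*, the second listed held none and the third held 2. The CHR letters were found in 2 of the 7 genes, *CDK1* and *CDC20*, against 7.33% of all promoters. At the start of *CDK1* shown above they lay 64 to 69 and 8 to 13 bases before it, and in *CDC20* 60 to 65 bases before it. The other start of *CDK1* held no CHR letters. *TYMS* alone of the 7 held the E2F letters, 33 to 39 bases before its start, against 3.6% of all promoters. No 2 matches overlapped. CCAAT letters were thus present in genes at the bottom and at the top of the range of ratios. A match is a run of letters and not evidence of a bound factor, and a window without a match says nothing about one.

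All 10 probes were clearly above background on both arrays. Their detection p-value, which tells how often a negative control reaches a probe's signal, was 0 on each. Deposited signals ran from 214.9 to 2781.4 intensity units with ABC294640 and from 609.9 to 4920.9 with vehicle, whereas the lowest detected signals on the arrays were 76.2 and 81.2 units. Before any normalization the signal of each of the 10 was lower with ABC294640, by 1.17-fold for *CDC45* up to 5.50-fold for *TOP2A*. Mid-range signals were weaker on the whole ABC294640 array, however, with a 75th percentile of 115.2 units against 167.5 with vehicle, so these raw folds mix a difference of the arrays with differences of single genes. Ratios below therefore come from values corrected for background and quantile-normalized, a step that gives both arrays the same distribution. They are stated as log2 of ABC294640 over vehicle, where -1 means 2-fold lower.

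**Figure D1:**
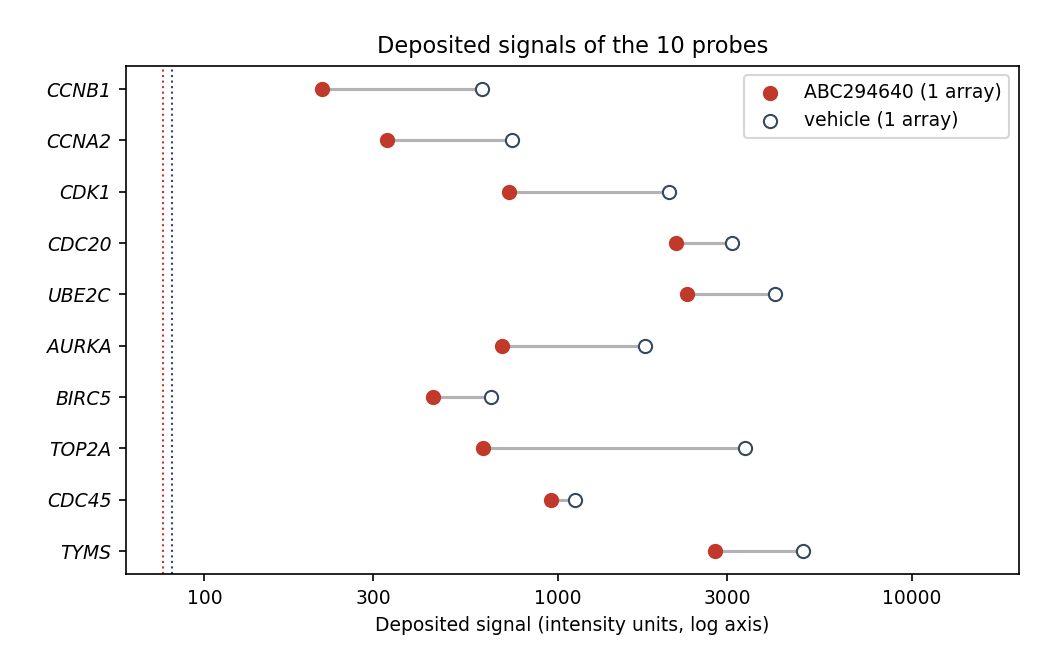
Deposited signal of each of the 10 probes (horizontal log axis, intensity units) on the ABC294640 array (filled points) and the vehicle array (open points); dotted lines mark the lowest detected signal of each array, 76.2 and 81.2 units. Every filled point lies to the left of its open point, with the widest gap for TOP2A, and probes of different genes differ in binding, so their levels are not compared with each other.

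After normalization 8 of the 10 probes were lower with ABC294640 and 2 were higher, with a median log2 ratio of -0.62 and a range of -2.07 to 0.38. Over the 18233 probes detected on at least 1 array the median was -0.07, the middle 50% of probes lay between -0.55 and 0.42, and 53.8% were below 0. At least 2-fold lower were 2 of the 10, *TOP2A* and *CDK1*, against 6.96% of the 18233 probes. None of the 10 was at least 2-fold higher, against 7.38% of all. At 1.5-fold, 5 of the 10 were lower (*TOP2A*, *CDK1*, *CCNB1*, *AURKA* and *TYMS*), against 18.5% of all, and 0 were higher, against 17.2%. A log2 distance of 2.45 separated the lowest of the 10 from the highest.

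**Figure D2:**
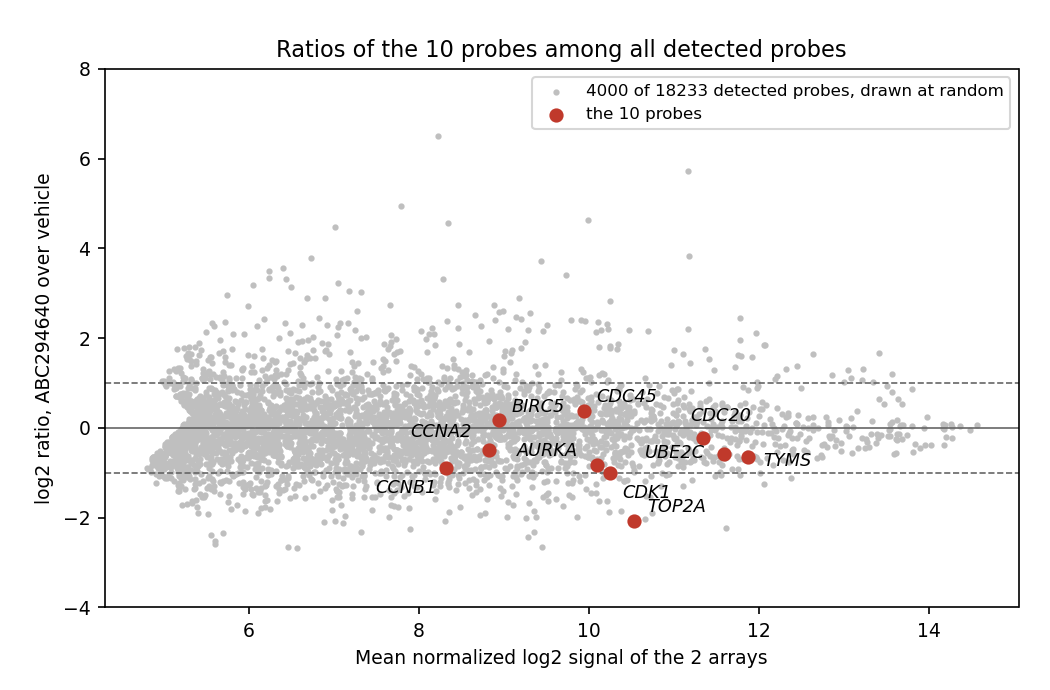
Log2 ratio of ABC294640 over vehicle (vertical axis) against the mean normalized log2 signal of the 2 arrays (horizontal axis) for the 10 probes (red) and for 4000 of the 18233 detected probes, drawn at random (grey); dashed lines mark 2-fold. TOP2A lies well below the lower line at -2.07, CDK1 on it at -1.01, and CDC45 and BIRC5 lie above 0.

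Among the cyclins and their kinase, *CDK1* (probe ILMN_1747911), the kinase that starts mitosis, had a signal of 724.7 units with ABC294640 and 2058.1 with vehicle. Its log2 ratio was -1.01, or 2.01-fold lower, and so only just past 2-fold. A second probe for *CDK1* gave 290.1 units with ABC294640 and 822.3 with vehicle and a log2 ratio of -0.88, so its 2 probes differed by little. *CCNB1* (ILMN_1712803), which encodes the cyclin that activates CDK1 at mitosis, had 214.9 units with ABC294640 against 609.9 with vehicle, and a log2 ratio of -0.90, or 1.86-fold lower. *CCNA2* (ILMN_1786125), the cyclin of DNA synthesis and early mitosis, had 329.0 units with ABC294640 and 738.8 with vehicle, with a smaller log2 ratio of -0.49. All 3 were lower with ABC294640 under each of the 7 other ways of processing that were tried, while the 2-fold call of *CDK1* was lost in 5 of them. These ways are not independent checks of a sign. Those that changed only the background or the offset kept the quantile step, so signs there followed the same ranks. Scaling both arrays to a common median and leaving them unnormalized differ by the same shift for every probe. Of all detected probes, 8.70% had a ratio below that of *CDK1*, 11.5% below that of *CCNB1* and 27.3% below that of *CCNA2*.

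Of the genes that act with the APC/C, *UBE2C* (ILMN_2301083), the enzyme that hands ubiquitin to it, had 2318.9 units with ABC294640 and 4090.8 with vehicle. Its log2 ratio was -0.58, just short of 1.5-fold lower, and came to -0.02 when the arrays were scaled to a common median. A second *UBE2C* probe was near background, with 67.5 units with ABC294640 and 84.3 with vehicle, was detected with vehicle alone, and gave no usable ratio. *CDC20* (ILMN_1663390), the activator of the APC/C at anaphase, had 2150.5 units with ABC294640 and 3090.9 with vehicle and a log2 ratio of -0.23, which turned to 0.28 with scaling to a common median. By place among all probes of its array, *CDC20* was brighter than 97.1% of them with ABC294640 and 97.5% with vehicle. *UBE2C* was brighter than 97.3% with ABC294640 and 98.3% with vehicle. Both probes thus stood lower in rank on the ABC294640 array, *CDC20* by little.

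Aurora kinase A and survivin differed from each other. *AURKA* (ILMN_1680955), a kinase that builds the spindle poles, had 692.6 units with ABC294640 and 1757.8 with vehicle, and a log2 ratio of -0.82, or 1.77-fold lower. Its second probe read 538.7 units with ABC294640 and 1557.9 with vehicle, with a log2 ratio of -0.97. *BIRC5* (ILMN_2349459) encodes survivin, a subunit of the chromosomal passenger complex that also inhibits cell death. Its probe had 442.5 units with ABC294640 and 644.0 with vehicle, and its log2 ratio of 0.18 turned to -0.58 without normalization between the arrays. By rank it stood slightly higher with ABC294640, where 4997 probes were brighter, than with vehicle, where 5428 were. A second *BIRC5* probe, at 57.0 units with ABC294640 and 73.1 with vehicle, was detected on neither array.

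The widest range was found among the genes of DNA synthesis and topology. *TOP2A* (ILMN_1686097) encodes topoisomerase II alpha, which untangles replicated chromosomes and is made mainly in late S phase and before mitosis. Its signal was 611.0 units with ABC294640 against 3362.5 with vehicle, and its log2 ratio of -2.07, or 4.20-fold lower, was below that of all but 0.307% of detected probes. Its place among all probes dropped accordingly, with 3989 brighter probes on the ABC294640 array and 1066 on the vehicle array. *TYMS* (ILMN_1806040), thymidylate synthase, which makes the thymidine nucleotide for DNA, had 2781.4 units with ABC294640 and 4920.9 with vehicle. Its log2 ratio was -0.66, or 1.58-fold lower, and came to -0.02 with scaling to a common median. *CDC45* (ILMN_1670238), part of the helicase that opens DNA at the replication fork, had 956.0 units with ABC294640 and 1118.1 with vehicle. With a log2 ratio of 0.38 it was the highest of the 10, and 2823 probes were brighter than it with ABC294640 against 3483 with vehicle, although its ratio turned to -0.23 without normalization between the arrays.

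The values that the authors deposited as processed had equal quartiles on both arrays, their normalization is not stated, and they gave the same order at the ends. *TOP2A* stood at 795.5 with ABC294640 and 3085.4 with vehicle, a log2 ratio of -1.96, and *CDC45* at 1167.8 and 929.3, a log2 ratio of 0.33. In these values 8 of the 10 probes were lower with ABC294640, and *TOP2A* alone passed 2-fold, as *CDK1* reached -0.92. In each of the 7 alternatives *TOP2A* had the lowest and *CDC45* the highest ratio of the 10. Without normalization between the arrays all 10 ratios were below 0, but so was the median of all detected probes, at -0.65. Relative to that median 7 of the 10 were lower, with *CDC20* 0.12, *BIRC5* 0.07 and *CDC45* 0.42 above it.

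**Figure D3:**
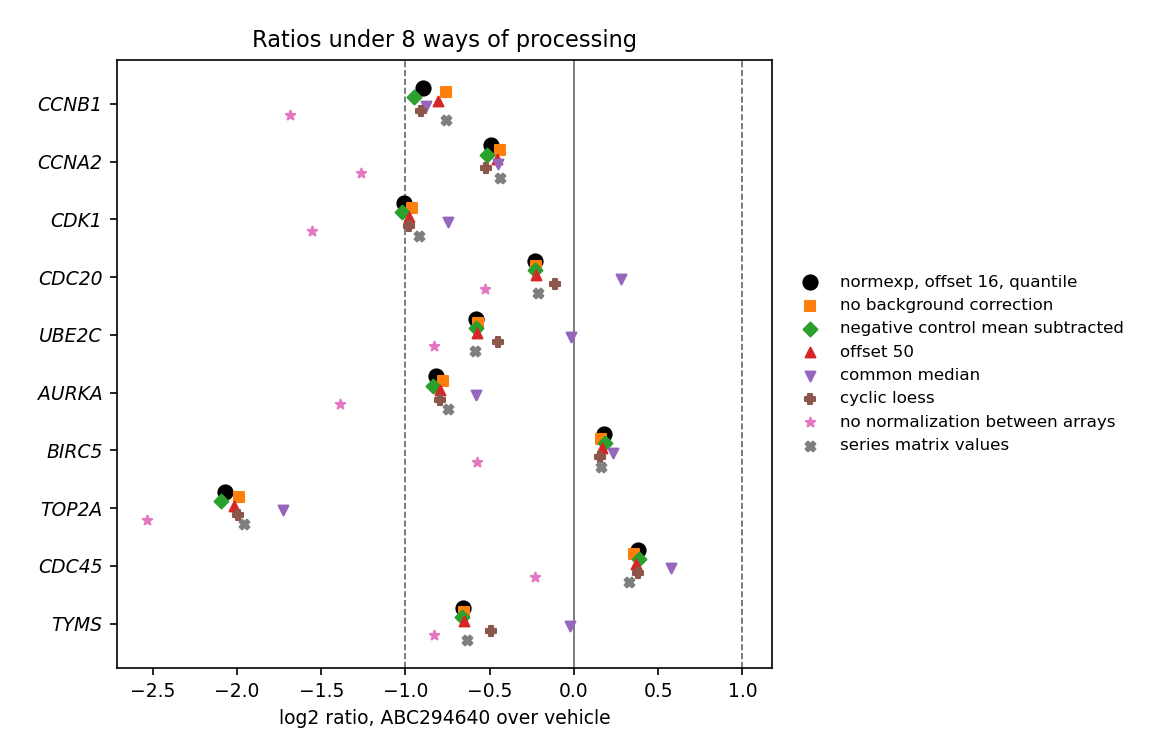
Log2 ratio of ABC294640 over vehicle (horizontal axis) of each of the 10 genes under the normalization used throughout (black circles) and 7 alternatives (other symbols, named in the legend); dashed lines mark 2-fold. TOP2A stays at -1.73 or below in all 8, CDK1 lies near -1 in most, and CDC20, BIRC5 and CDC45 lie on different sides of 0 depending on the scaling.

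The wider cell cycle was described with 9 lists holding 120 other genes, of which 118 had a probe and 107 were detected. Like the 10 probes, the lists were chosen with earlier results of these data known. For a gene with several detected probes the median of their ratios was used. Of the 107 genes, 18 were at least 2-fold lower with ABC294640 and 5 at least 2-fold higher, against 7.22% and 6.25% of all 10893 genes with a detected probe. The count of 18 depended on the processing. It was 8 without background correction and with the authors' processed values, 9 with an offset of 50 or a common median, and 58 without normalization between the arrays. The share of all detected probes at least 2-fold lower, 6.96% in the main setting, moved as well. It was 3.4% without background correction, 3.82% with the authors' processed values and 4.26% with an offset of 50. With a common median it was 4.97%, and without normalization 27.9%. Of the 18 genes, 5 were past 2-fold lower in all 7 alternatives, and of the 5 higher genes, 1 was past 2-fold higher in all 7. The median log2 ratio of the 107 was -0.52, against -0.10 over all those genes. At 1.5-fold, 42 were lower and 10 higher, against 19.4% and 15.3% of all genes. Of all genes, 55.9% were below 0.

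In the list of kinesins, spindle and kinetochore genes, 20 of 21 were below 0, against 55.9% of all genes. At least 2-fold lower were 8 of the 21, against 7.22% of all genes, and none was at least 2-fold higher, against 6.25%. The median log2 ratio of the 21 genes was -0.86, against -0.10 over all genes. The 4 brightest of them were *NUSAP1*, a spindle microtubule protein, at -1.10, *HMMR*, a spindle assembly factor, at -0.88, *PRC1*, which bundles microtubules at the midzone, at -0.86, and *TPX2*, an activator of Aurora kinase A, at -0.36. The other 7 past 2-fold, named after their values were seen, were *KIF11*, *KIF14*, *KIF23*, *CENPA*, *CENPE*, *CENPF* and *ASPM*. *ASPM*, a spindle pole protein, was the lowest of this list, with 319.4 units with ABC294640 against 1503.8 with vehicle and a log2 ratio of -1.70. Each of the 20 genes below 0 was below 0 under all 7 alternatives as well. The same share over all genes is not given here, and alternatives that keep the quantile step largely keep a sign. Of the 8 past 2-fold, however, only *ASPM* and *CENPF* were past it in all 7. The other 6 reached, at their highest, -0.56 for *NUSAP1*, -0.75 for *CENPE*, -0.79 for *CENPA*, -0.87 for *KIF23*, -0.89 for *KIF14* and -0.96 for *KIF11*.

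Condensation and cytokinesis genes had a median log2 ratio of -0.92, against -0.10 over all genes. At least 2-fold lower were 4 of 11, against 7.22% of all genes. Besides *ECT2* these 4 were, named after their values were seen, *NCAPD2* at -1.20, *RACGAP1* at -1.09 and *ANLN* at -1.01. All 4 calls were lost under at least 1 of the 7 alternatives, where *NCAPD2* reached -0.93, *ECT2* -0.88, *ANLN* -0.83 and *RACGAP1* -0.76 at their highest. By brightness the list was led by *CEP55*, which acts in the final cut between daughter cells, at -0.92, *HMGB2*, a chromatin protein, at -0.70, *ECT2*, which sets off the cleavage furrow, at -1.20, and *NCAPG*, a condensin subunit, at -0.65. *MKI67*, the gene of the Ki-67 proliferation marker, was detected with vehicle alone, at 58.7 units with ABC294640 and 91.2 with vehicle, too near background for a ratio. Mitotic entry and checkpoint genes had a median of -0.53, with 15 of 17 below 0, against 55.9% of all genes. One of the 15, *AURKB*, the kinase of the chromosomal passenger complex, lay at -0.01 and turned to 0.10 with a common median. Of these 17 only *PLK4*, the kinase of centriole duplication, was at least 2-fold lower, at -1.05, against 7.22% of all genes. *PLK4* was named after its value was seen. It missed 2-fold in 4 of the 7 alternatives, at -0.91 in the highest. *NEK2* was at -0.95, *BUB1* at -0.70, *BUB3* at -0.59 and *CCNB2* at -0.42. Among the APC/C and anaphase genes, *FBXO5*, an inhibitor of the APC/C, was at -0.98, but *PTTG1*, securin, at 0.14 and *ANAPC11* at 0.21 lay near 0 and turned below it without normalization. *ESPL1*, separase, was at -0.07.

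Genes of replication licensing and the fork, the list nearest to *CDC45* in function, had a median log2 ratio of 0.23. Of these 24 genes 9 were below 0, against 55.9% of all genes, and 15 were above. The median turned to -0.34 without normalization between the arrays, where the median of all detected genes was -0.70. None was at least 2-fold lower, against 7.22% of all genes. At least 2-fold higher were 2 of the 24, against 6.25% of all genes, *GINS2* at 1.52 and *MCM5* at 1.31, both named after their values were seen. Without normalization they were at 0.98 and 0.53, short of 2-fold. GINS2 belongs to the same helicase as CDC45, and its probe read 1793.5 units with ABC294640 and 933.1 with vehicle. The 4 brightest genes were *ORC6* at 0.28, *MCM3* at 0.23 and *MCM6* at 0.22, which load the helicase and form its ring, and *PCNA*, the sliding clamp, at -0.61. The first 3 of these turned below 0 without normalization. For *ORC6* that value joins 2 probes with similar normalized log2 ratios, 0.23 for the bright probe and 0.33 for the dim probe. Only in deposited signal did their directions differ. There the bright probe was higher, at 22772.3 units with ABC294640 and 19847.5 with vehicle, and the dim probe lower, at 317.3 and 426.9. The 2 probes of *MCM3* differed in normalized ratio, with 1 at 0.47 and the other near 0.

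Nucleotide synthesis genes lay on both sides of 0, and 1 of the 5 detected was at least 2-fold lower, against 7.22% of all genes. *RRM2*, the regulated subunit of ribonucleotide reductase, had 152.1 units with ABC294640 against 716.8 with vehicle and a log2 ratio of -1.81, the lowest of the 107. Its partner *RRM1* was at -0.76. *TK1*, thymidine kinase, was higher at 0.64, above 0 in all 7 alternatives, and *DUT* was at 0.30 but turned to -0.49 without normalization. The 3 probes of *DUT* disagreed in sign, at -0.29, 0.30 and 0.36. Of the G1 cyclins and kinases, *CCND1*, cyclin D1, was at least 2-fold higher at 1.40, with 3124.6 units with ABC294640 and 1573.6 with vehicle, and *CCND3* was at 0.67. *CDK4* was at -0.54, *CDK2* at -0.32 and *CDK6*, named after its value was seen as the only gene of that list past 2-fold lower, at -1.18. Of the 8 detected genes of that list, 1 was thus at least 2-fold higher, against 6.25% of all genes, and 1 lower, against 7.22%. The CDK inhibitors *CDKN1B* and *CDKN2D* were at -0.56 and -0.67. For *CDKN1A*, the p21 inhibitor, the 2 probes disagreed. Its bright probe had 4247.0 units with ABC294640 and 5083.5 with vehicle, a log2 ratio of -0.18, whereas a dim probe read 93.8 units with ABC294640 and 47.2 with vehicle and was detected with ABC294640 alone.

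**Figure D4:**
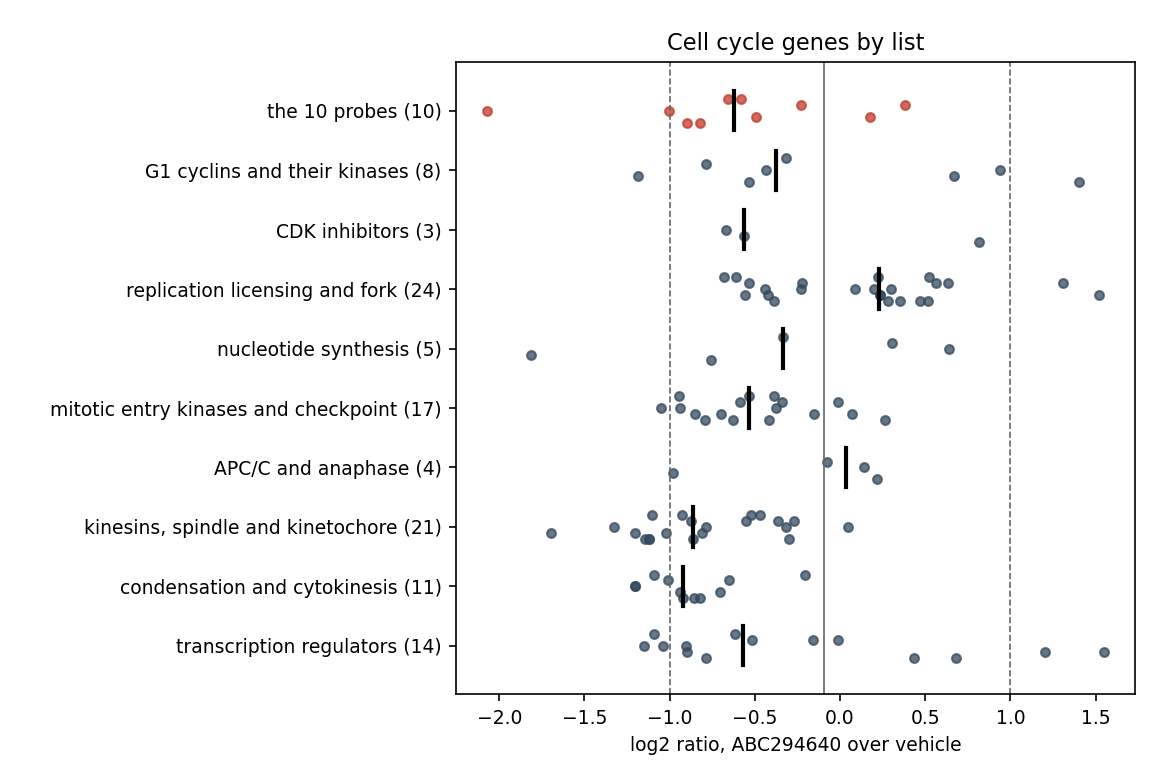
Log2 ratio of ABC294640 over vehicle (horizontal axis) for the 10 probes (red) and for the detected genes of each of 9 lists (dark points, number in parentheses); thick bars are medians, dashed lines mark 2-fold and the thin line is the median of all detected genes, -0.10. The spindle and cytokinesis lists lie mostly to the left of that line, with medians of -0.86 and -0.92, and the licensing list straddles it, with a median of 0.23.

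Transcription factors that govern these genes were given in full. *E2F2* at 1.20 and *E2F1* at 0.68, activators of genes for DNA synthesis, were higher in all 7 alternatives, although their signals were low, at 149.6 and 106.3 units with ABC294640 and 118.1 and 105.5 with vehicle. *E2F3* was at -0.90, *E2F7* at -0.62, *E2F4* at -0.01 and the E2F partner *TFDP1* at -0.52. Of the pocket proteins that hold E2F factors in check, *RBL2* was at -1.15 and *RB1* at -0.79, and *RBL1* was detected with vehicle alone. MuvB core subunits lay on both sides, with *LIN9* at -1.09, *LIN54* at -1.04, *LIN37* at 0.44 and *LIN52* at 1.55, the last with 132.0 units with ABC294640 and 88.7 with vehicle. Of the 14 detected regulators, 3 were at least 2-fold lower and 2 at least 2-fold higher, against 7.22% and 6.25% of all genes. Of these 5 regulators past 2-fold, only *RBL2* was past it in all 7 alternatives. *FOXM1*, which drives mitotic genes, was at -0.16, and *MYBL2* and *E2F8* were detected on neither array. The level of a regulator's transcript does not show its activity.

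Facts of the arrays that touch these ratios are as follows. Detected probes numbered 15957 with ABC294640 and 17477 with vehicle, and summed signals were 16320970 and 19099979 units. Of 12 endothelial markers, *ENG* and *TEK* were detected, and *PECAM1*, *CDH5*, *VWF* and *KDR* were not, with signals of 39.4 to 61.6 units with ABC294640 and 47.3 to 68.6 with vehicle; the 4 lymphatic endothelial markers were not detected either. The cell type is therefore given as labelled, and most of its defining transcripts were not detected here. Of other cell types, 3 of 7 fibroblast or mural markers were detected (*ACTA2*, *DCN* and *LUM*), 1 of 4 leukocyte markers with a probe (*CD14*) and 1 of 4 epithelial markers (*KRT8*). *CD14* had 171.3 units with ABC294640 and 95.8 with vehicle, *KRT8* 334.1 and 204.5. Summed signals were 346.4 units with ABC294640 and 275.6 with vehicle for the leukocyte list, 501.4 and 397.2 for the epithelial list and 2256.8 and 3272.2 for the fibroblast or mural list. For the endothelial list they were 768.9 with ABC294640 and 808.9 with vehicle, and for the lymphatic endothelial list 213 and 224.2. These sums are of deposited signals, 1 probe per gene, and include genes that were not detected, so part of each is background. The inferred mean of the negative controls was 53.8 units with ABC294640 and 56.1 with vehicle. The part of these cell types in the ratios of the proliferation genes was not tested.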

How the data were processed

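RNA from 2 cultures was read on Illumina Expression BeadChips. The authors deposited bead intensity values for 47323 probes, made in GenomeStudio per the submitters' processing notes (version and settings not given in the sources used here), with a detection p-value for each; no deposited intensity was negative, so no background subtraction was visible. They also deposited processed intensities with equal quartiles on both arrays. From the first table, 5 placeholder probes at 0 were left out. With limma 3.58.1 in R 4.3.3, background was corrected by normexp with negative controls inferred from the detection p-values, an offset of 16 was added and log2 values were quantile-normalized over 47318 probes. Probes with a detection p-value under 0.01 on at least 1 array entered counts; a probe detected on 1 array counted only by its lower bound, and medians use measured ratios. The offset shrinks ratios of dim probes, and the quantile step removes overall shifts. Background correction acts the other way and widens ratios. Without it 620 probes were at least 2-fold lower and 810 higher, against 1269 and 1346 with it. The number of arrays limits the precision, and no p-value between groups was computed.

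The annotation gave 1 gene symbol for 30113 probes and several for 8; the other 17202 are unnamed here. Symbols were updated through Entrez identifiers. Genes named are the 10 members, up to 4 genes with the highest mean signal per list, and every detected CDK inhibitor and transcription regulator, besides those said to be chosen after their values were seen. Members and lists were chosen with earlier results of these data known. The procedure was run on simulated arrays with known fold changes, both built from the vehicle signals. They lacked the difference in mid-range signal between the real arrays, so the run says nothing about its effect on the ratios. Alternatives changed background, offset, normalization, detection filter, bound, fold threshold, probe choice and source of values.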

Additional observations from a re-analysis of the deposited data

How the results depend on the processing

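With 1 array per group, only the fold and its dependence on processing could be examined, and signal over background limits ratios of dim probes. A ratio was taken as little moved when it shifted by less than the spread of the 1000 detected probes nearest in signal, 0.58 to 0.77 (log2). That spread lies between different probes and is not the error of a ratio, so the rule is lenient. With a common median *UBE2C* went from -0.58 to -0.02 and *CDC20* from -0.23 to 0.28, and both counted as little moved. The median of the 10 probes, -0.62 in the main setting, ranged from -1.05 to -0.24 over the alternatives. By the spread of nearby probes, *TYMS* moved to -0.02 with a common median, and *CCNB1* to -1.69, *CCNA2* to -1.26 and *BIRC5* to -0.58 without normalization. Counts below give lower probes of the 10, lower and higher genes of the lists, then lower and higher probes of all, where 2, 18, 5, 1269 and 1346 were the main values. Without background correction they were 1, 8, 3, 620 and 810. With an offset of 50, 1 of the 10, 9 list genes and 777 probes were lower. A common median left 1 and 9 lower, with 2059 probes higher, and cyclic loess left 1 of the 10 lower. No normalization gave 5, 58, 1, 5094 and 548, so that 9.71% of all probes past 2-fold were higher, against 69.4% with a common median and 51.5% in the main setting. The authors' processed values gave 1, 8 lower list genes, 697 and 895. By construction a 1.5-fold threshold gave 5, 42, 10, 3380 and 3139, and a 3-fold threshold 1, 2, 0, 221 and 533. Detection filters, the bound and the choice of probe moved none of these counts by over 1.5 times. No paired analysis was possible because a single array stands for each treatment.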
